A study of Rattus norvegicus with 24 samples.

Results

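Extracellular matrix and fibrosis genes were followed in rat kidney RNA. The list held 45 genes: fibrillar and other collagens, basement membrane proteins, elastic fibre and matricellular proteins, small proteoglycans, crosslinking enzymes, proteases with their inhibitors, profibrotic signals and cytoskeletal genes of contractile and mesenchymal cells. A gene entered through every probe set of either array that the platform annotation gave that single gene symbol. This matching of probe sets used no measured value, but the genes were chosen with earlier results of these data known. Probe sets were found for 43 of the 45 genes (69 probe sets), and 40 genes, with 62 probe sets, were bright enough to be tested, out of 13810 genes with a single symbol in the series and 11218 tested. Ctgf was listed by the platform under its current symbol Ccn2. Col4a3 and Thbs1 had no matched probe set and were not analysed here, and Postn, Tnc and Lum had only probe sets below the signal filter.

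The study measured left kidneys of male rats of 3 strains on Affymetrix RAE230A and RAE230B arrays. SS/jr rats are Dahl rats bred for salt sensitivity (S), and ET3x1 and ET3x2 are congenic substrains. By the naming custom of their full names both substrains have an S background, which all rats therefore shared outside the introgressed segment, whose borders are not given in the sources used here. In every group the diet held 0.4% NaCl up to an age of 39 to 41 days and 2% NaCl for the next 28 days, and the rats reached 67 to 69 days. RNA of several rats was pooled, which gave 4 S pools (A, B, C and D) of 2 rats each, 4 ET3x1 pools (E, F, G and H) of 3 rats each and 4 ET3x2 pools (I, J, K and L) of 3 rats each, 12 pools from 32 rats. The number of rats in a pool therefore differed with the strain, and its part in the spread cannot be told apart from that of the strain.

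The kidney's matrix lies in a pair of compartments. Basement membranes under the tubules and capillaries are sheets of type IV collagen, laminin, nidogen and the proteoglycan perlecan, while the interstitium between them holds fibrils of types I, III and V collagen made by fibroblasts. Lysyl oxidases crosslink collagen and elastin, metalloproteinases and their tissue inhibitors set turnover, and TGF-beta with connective tissue growth factor drives matrix production in fibrosis, which accompanies hypertension in salt-fed Dahl rats.

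Values are log2 signals, so a difference of 1 is a doubling, and levels of different probe sets are not compared with one another. The actin 5' minus 3' control signal of RAE230A, which falls as RNA loses its 5' parts, set 3 pools apart. It was −1.27 in pools A and B of S and −1.14 in pool J of ET3x2, and between −2.10 and −1.66 in the other 9. Markers of proximal tubule were tested for 5 of 5 listed genes and lay at the 95.7th to 99.7th percentile of mean signal of their array. Those of thick limb and distal tubule, 4 of 4 tested, lay at the 61.0th to 99.9th, with Umod the highest. Of markers of cells that make matrix, 8 of 8 fibroblast and pericyte genes and 4 of 6 vascular smooth muscle genes were tested, and none was called between strains (limma, adjusted p under 0.05), while 1 and 0 of them had an unadjusted p under 0.05 when ET3x1 was set against S, 0 and 0 for ET3x2, and 1 and 1 between the substrains. The mean of the 8 fibroblast and pericyte markers, each centred on its mean over the 12 pools, ran from −0.15 to −0.00077 in S, from −0.0094 to 0.050 in ET3x1 and from −0.037 to 0.12 in ET3x2. Of 6 endothelial genes, whose cells also make basement membrane, 5 were tested and none was called. An unadjusted p under 0.05 was reached by 3 of the 5 when ET3x1 was set against S (Vwf at −0.29, Tek at −0.18 and Emcn at 0.22), by 1 for ET3x2 and by 2 between the substrains. Of all 11218 genes tested, 511 were lower and 831 higher at that level in ET3x1 against S. The centred mean of the 5 endothelial genes ran from −0.074 to 0.11 in S, −0.14 to 0.14 in ET3x1 and −0.068 to 0.037 in ET3x2. In RNA of whole kidney, fewer cells of a type and less RNA per cell cannot be told apart.

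No matrix or fibrosis probe set passed in any of the 3 strain comparisons at an adjusted p under 0.05 (limma, Benjamini-Hochberg over all probe sets of an array), where 0.44% of all 21799 probe sets passed for ET3x1 relative to S, 0.344% for ET3x2 relative to S, and 1.48% between the substrains. At an unadjusted p under 0.05, 16 of the 62 probe sets (25.8%, for 14 genes) were lower in ET3x1 than in S, against a background of 4.41% of all probe sets. Another 3 (4.84%), of Sparc, Mmp14 and Timp3, were higher, against 7.44%, and 1 was higher without pool F or without pool D. Of the 16, Col4a1 and Col15a1 each gave a pair, and the others were of Col1a1, Col1a2, Col3a1, Col5a1, Col6a1, Col6a2, Col12a1, Col18a1, Nid1, Lox, Loxl1 and Mmp2. In 10 probe sets (16.1%) all 4 ET3x1 pools lay below all 4 S pools, against 1.99% of all probe sets. In 1 (1.61%), of Timp3, all lay above, against 4.41%.

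The count of probe sets lower in ET3x1 depended on single pools, with pools A, B, D and G among them. With pools A, B and J left out together, 5 of the 62 probe sets were lower in ET3x1 than in S at an unadjusted p under 0.05. In that setting S kept pools C and D alone. Counts in this and the other alternatives below are given without the share of all probe sets, so they cannot be set against a background. Leaving out pool A alone gave 10, pool B alone 8 and ET3x1 pool G alone 9, while leaving out pool D gave 24, and with the actin 5' minus 3' signal as a covariate there were 12.

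In ET3x2 against S, 6 probe sets (9.68%) were lower at an unadjusted p under 0.05, against 3.98% of all probe sets, and 5 (8.06%) were higher, against 6.89%. The lower ones were of Ctgf, Lamb2, Fbn1, Col1a2, Col5a1 and Col5a2, the higher ones of Sparc, Timp1, Mmp14, Acta2 and Tgfb2. All 4 ET3x2 pools lay below all 4 S pools in 1 probe set (1.61%), of Col1a2, against 2.09%. They lay above in 2 (3.23%), of Col5a1 and Tgfb2, against 3.87%, so that the shares without overlap were near the background. The count of lower probe sets was 15 without pool J, 13 without pool D, 14 with the actin covariate, 11 with median centring, 13 after quantile normalisation and 2 without pools A, B and J. That of higher ones was 1 without pool I, 2 without pool C, D or L, 3 without pool J or K, and 8 without pool B.

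ET3x2 against ET3x1 shares the ET3x1 pools with the first comparison and gave 14 higher probe sets (22.6%, for 13 genes) at an unadjusted p under 0.05, against 6.71% of all probe sets. Another 6 (9.68%, for 5 genes) were lower, against 6.39%, 3 were lower without pool H or without pool K, and with the actin covariate 10 were lower and 10 higher. In 7 probe sets (11.3%) all ET3x2 pools lay above all ET3x1 pools, against 4.96%, namely those of Col4a1, Col5a1, Col6a2, Col18a1, Hspg2, Loxl1 and Acta2. In 5 (8.06%), of Col1a2, Ctgf, Fbn1, Sparc and Timp3, they lay below, against 4.18%. No S pool entered this difference, and the count of higher probe sets was 8 without pools A, B and J, 7 without pool J alone and 9 without pool H.

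With 1 probe set standing for each gene, the one of highest mean, the median difference of the 40 genes was −0.098 in ET3x1 against S, with 26 negative, where the median of all 11218 genes was 0.00078. The median was −0.040 in ET3x2 against S (25 negative), where that of all genes was 0.034, and 0.044 in ET3x2 against ET3x1 (16 negative), where that of all genes was 0.032. Both comparisons with S use the same 4 S pools. Omitting pools A, B and J, the median was 0.026 in ET3x1 against S (17 negative) and 0.039 in ET3x2 against S (14 negative), and with the actin covariate it was −0.025 and −0.047. In ET3x2 against ET3x1 the covariate turned the direction of the median, to −0.022 (22 negative). The mean over the 40 genes, each centred on the 12 pools, was highest in pools B (0.15), A (0.12) and J (0.047) and lowest in S pool D (−0.12), so that the S pools spanned the range of all 12.

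**Figure D1:**
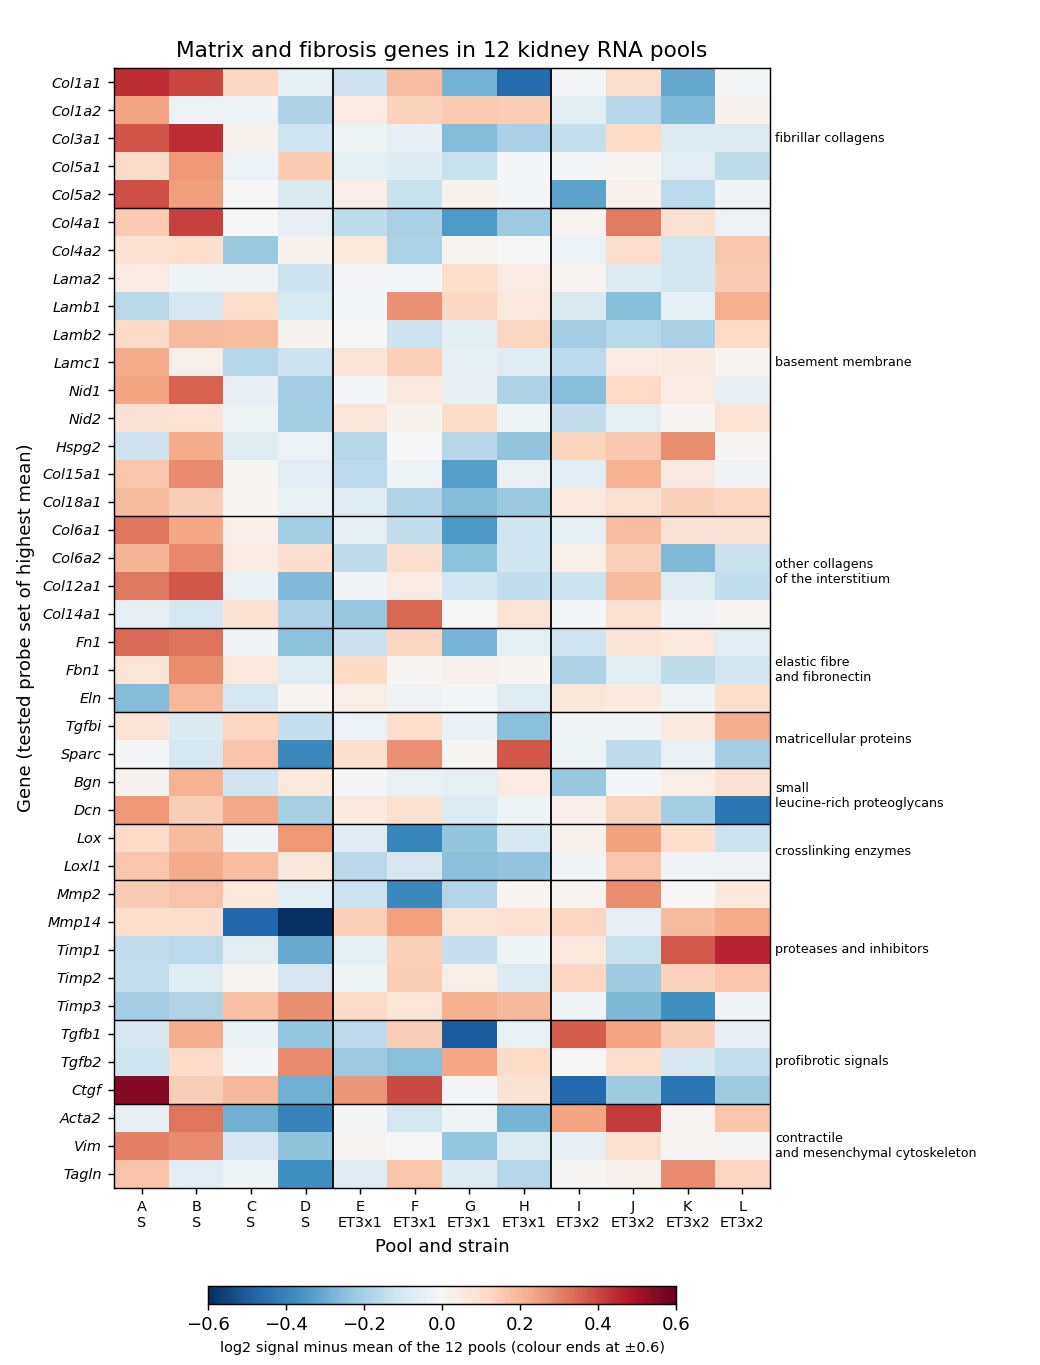
Log2 signal of each of the 40 tested genes minus its mean over the 12 pools, by its probe set of highest mean, with pools in columns grouped by strain and genes in rows grouped by role (colour ends at ±0.6). S pools A and B are red across most collagens and pool D is blue in most rows, while ET3x1 pools are blue in the rows of Lox, Loxl1, Col4a1 and Col18a1.

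**Figure D2:**
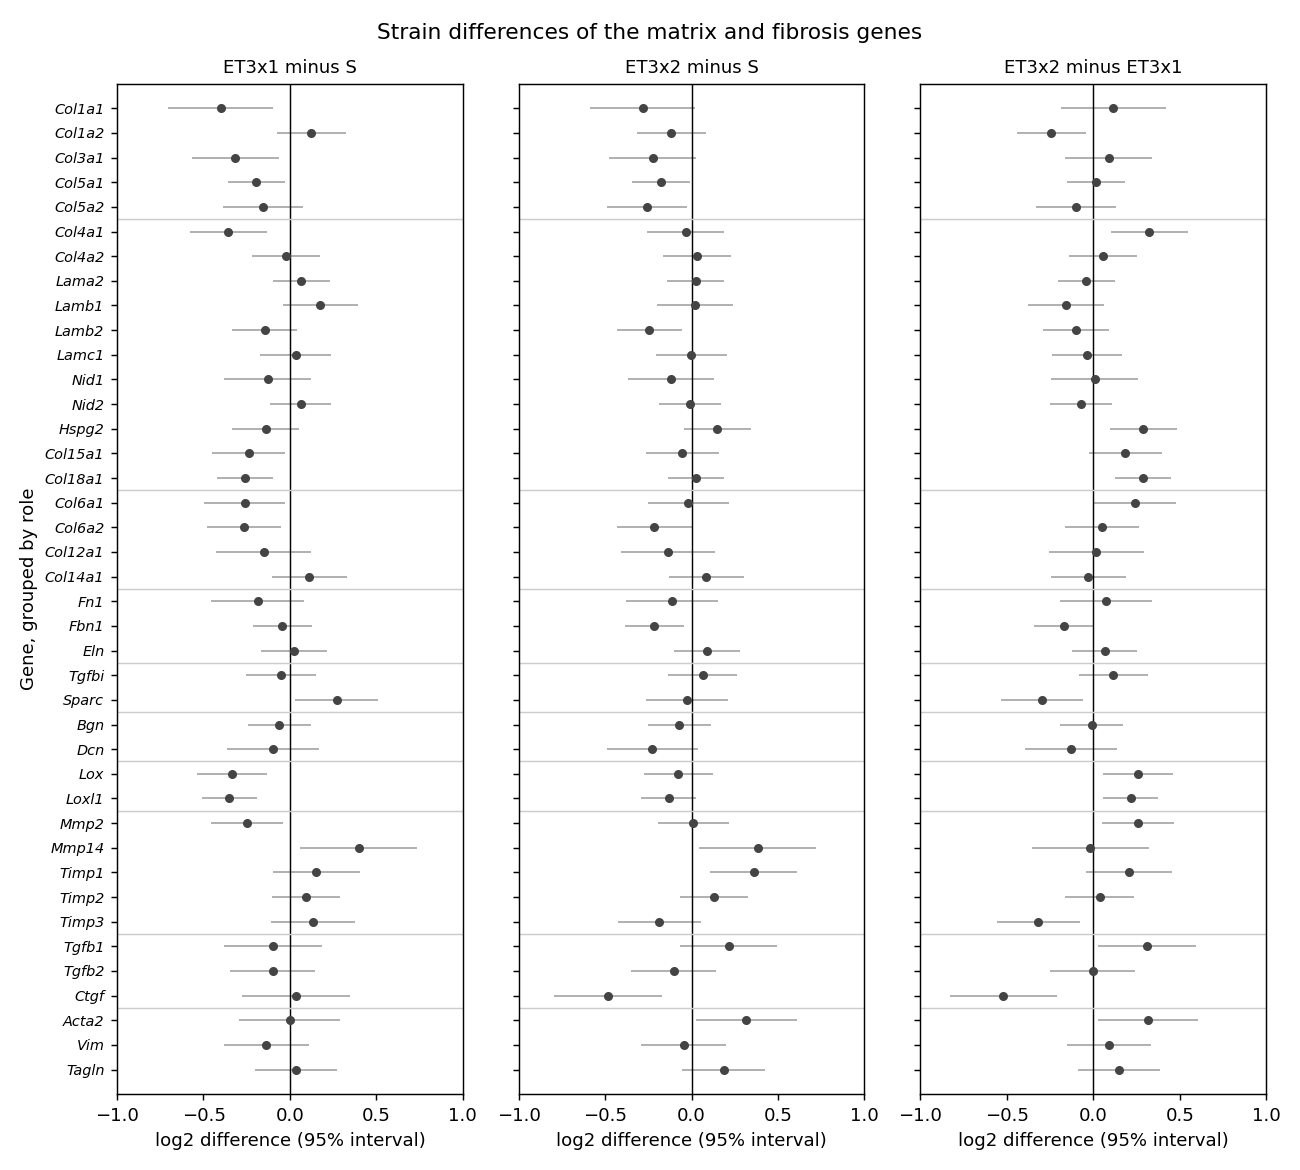
Log2 difference (point) and 95% interval (line) of the same 40 probe sets in the 3 strain comparisons, with a line between roles. None passed at an adjusted p under 0.05. In ET3x1 minus S 26 points are below 0, and in ET3x2 minus S 25 are.

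Fibrillar collagens form the tensile fibrils of the interstitium, and 5 genes were tested. By 1 probe set per gene, 4 of 5 were lower in ET3x1 than in S with a median of −0.20, and all 5 were lower in ET3x2 than in S with a median of −0.23. Between ET3x2 and ET3x1 the median was 0.017, with 2 of 5 negative. Their mean, centred on the 12 pools, was 0.31 in pool A and 0.26 in pool B, and between −0.18 and 0.018 in the other 10, pool J included.

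Col1a2, on chromosome 4, encodes the alpha 2 chain of type I collagen, and 1 of its probe sets, 1370155_at, had the smallest p of any listed gene in ET3x2 against S. In S pools A, B, C and D it read 11.24, 11.20, 11.08 and 10.91. In ET3x1 pools E, F, G and H the signals were 10.62, 10.58, 10.46 and 10.50, and in ET3x2 pools I, J, K and L they were 10.46, 10.87, 10.12 and 10.08. Every S pool lay above every pool of both substrains, with pool J the nearest to S. Its mean differed from S (11.11 ± 0.15, SD, n = 4 pools) by −0.57 in ET3x1 (SE 0.14, adjusted p = 0.152) and by −0.73 in ET3x2 (SE 0.14, adjusted p = 0.0592). Without pool J, both differences passed, at −0.57 (adjusted p = 0.0313) and −0.89 (adjusted p = 0.00225). The ET3x2 difference also passed without pool D (−0.79, adjusted p = 0.0316), with the actin covariate (−0.74, adjusted p = 0.00667) and with pools A, B and J left out (−0.78, adjusted p = 0.0322). Most alternatives did not pass. The ET3x1 difference passed in 2 of 21, with an adjusted p (limma) of up to 0.411. That of ET3x2 passed in 7 of 21, with an adjusted p of up to 0.266.

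A second Col1a2 probe set, 1387854_at, gave another order of the strains. It read 11.23, 10.96, 10.97 and 10.81 in S pools A to D, 11.04, 11.13, 11.15 and 11.14 in ET3x1 pools E to H, and 10.93, 10.83, 10.73 and 11.02 in ET3x2 pools I to L. ET3x1 differed from S by 0.12 (SE 0.093, 95% interval −0.07 to 0.32), where the first probe set gave −0.57. All ET3x2 pools lay below all ET3x1 pools, with a difference of −0.24 (SE 0.093, adjusted p = 0.237). The lower signal of Col1a2 in ET3x1 therefore rested on 1 of its 2 probe sets.

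The 250 bases before the annotated start of Col1a2 are shown so that the promoter can be read beside the type IV collagen pair below. Where its 2 probe sets lie on the transcript is not given in the sources used here, and why they disagree was not tested. The sequence is from RefSeq, build GRCr8, chr4:33518307-33518556, plus strand, 5′ to 3′. Capitals mark matches, on either strand, to 4 motifs: the CCAAT box, the GC box GGGCGG, the TATA box TATAAA and GGAATG, the core bound by TEAD factors. No matches overlapped.
Col1a2: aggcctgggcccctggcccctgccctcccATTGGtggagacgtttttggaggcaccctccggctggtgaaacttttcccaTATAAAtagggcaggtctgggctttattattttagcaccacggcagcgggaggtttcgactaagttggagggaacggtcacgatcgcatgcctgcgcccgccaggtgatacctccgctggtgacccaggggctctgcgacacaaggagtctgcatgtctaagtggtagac
This window held 1 CCAAT match on the minus strand, at −221 from the start, and 1 TATAAA match, at −170. It held neither GGGCGG nor GGAATG. Windows were given for 25 of the 40 tested genes. CCAAT was in 7 of the 25 (28%) and in 34% of all 33469 windows of this length in the table, and TATAAA was in 3 (12%) and in 12.9%. GGGCGG was in 15 of the 25 (60%) and in 30.5% of all windows, and GGAATG in 7 (28%) and in 12.1%. The windows of the whole table were not limited to genes tested here, and these differences were not tested. A match describes the letters and is no evidence that a factor binds.

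Col3a1, the type III collagen chain, read 12.34, 12.41, 11.98 and 11.84 in S, 11.93, 11.92, 11.70 and 11.77 in ET3x1, and 11.82, 12.08, 11.88 and 11.89 in ET3x2. Pools A and B stood above the rest, while C and D overlapped both substrains. ET3x1 differed from S by −0.32 (SE 0.12, adjusted p = 0.285) and by −0.084 without pools A, B and J. Col1a1, the alpha 1 chain of type I collagen, had an S range of 10.98 to 11.48 on 1388116_at, against 10.58 to 11.22 in ET3x1 and 10.73 to 11.14 in ET3x2, with a difference of −0.40 (SE 0.14, adjusted p = 0.271) in ET3x1. Its second probe set, 1370864_at, gave −0.058 (SE 0.080), so that this difference too was seen on 1 of 2 probe sets.

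Col5a1, on chromosome 3, encodes a type V collagen chain that limits fibril width. Its brighter probe set 1376099_at lay between 10.42 and 10.72 in S, 10.32 and 10.44 in ET3x1, and 10.30 and 10.47 in ET3x2, with differences from S of −0.19 (SE 0.078, adjusted p = 0.309) and −0.18 (SE 0.078, adjusted p = 0.404). The dimmer 1369955_at read 8.33, 8.31, 8.28 and 8.30 in S, 8.18, 8.22, 8.31 and 8.27 in ET3x1, and 8.46, 8.34, 8.43 and 8.36 in ET3x2. There every ET3x2 pool was above every pool of the other strains, by differences of 0.093 from S and 0.15 from ET3x1 (SE 0.061, adjusted p = 0.591 and 0.247). Col5a2, its partner chain, differed from S by −0.16 in ET3x1 and −0.26 in ET3x2 (SE 0.11, adjusted p = 0.542 and 0.390).

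By 1 probe set per gene, the 11 tested basement membrane genes had a median of −0.13 in ET3x1 against S (7 negative). It was −0.0015 in ET3x2 against S (6 negative) and 0.0091 in ET3x2 against ET3x1 (5 negative). Over all 16 tested probe sets of these genes the medians were −0.19 (12 negative), −0.023 (10 negative) and 0.12 (6 negative), in the same order. The median between the substrains thus depended on the choice of probe set. The fibrillar collagens had negative medians of −0.20 and −0.23 in the substrains, and the difference between these roles was not tested. At an unadjusted p under 0.05 in ET3x1 against S, 3 of the 11 genes were lower, Col4a1, Col15a1 and Col18a1, and none was higher, where 511 of all 11218 genes were lower. Between ET3x2 and ET3x1, 3 were higher, Col4a1, Col18a1 and Hspg2, where 910 of the 11218 were. No endothelial marker was called, and the 3 with an unadjusted p under 0.05 (limma) in ET3x1 against S went in both directions, as given above. The part of endothelial cells in the counts of basement membrane genes was not tested. The group mean was 0.15 in pool B, 0.093 in pool A and 0.043 in pool J, and 0.071 in pool L.

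Col4a1, on chromosome 16, encodes the alpha 1 chain of type IV collagen, the network of all basement membranes. Probe set 1373245_at read 12.08, 12.33, 11.93 and 11.87 in S, 11.77, 11.73, 11.58 and 11.71 in ET3x1, and 11.94, 12.23, 12.01 and 11.89 in ET3x2. All ET3x1 pools lay below all pools of S and of ET3x2, and the highest values were those of pools B and J. The differences were −0.36 in ET3x1 against S (SE 0.10, adjusted p = 0.191) and 0.32 in ET3x2 against ET3x1 (SE 0.10, adjusted p = 0.163). Once pools A, B and J were left out, they were −0.20 and 0.25, and with the actin covariate −0.26 and 0.22, so that the first moved by over 1.5 times without these pools. The second Col4a1 probe set, 1372439_at, differed by −0.38 (SE 0.14) and 0.27 (SE 0.14) in the same comparisons, although its strains overlapped.

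Col4a2 encodes the alpha 2 chain, which joins alpha 1 in the same trimer, and its single probe set ran from 12.12 to 12.44 in S, 12.15 to 12.40 in ET3x1 and 12.23 to 12.50 in ET3x2. Its differences were −0.024 in ET3x1 against S (SE 0.092, 95% interval −0.22 to 0.17), 0.033 in ET3x2 against S and 0.057 in ET3x2 against ET3x1 (SE 0.092, 95% interval −0.14 to 0.25). The intervals of Col4a1 in ET3x1 against S (−0.58 to −0.13) and of Col4a2 overlap, and the difference between both genes was not tested. The pair starts head to head on chromosome 16, and the 250 bases before each start are shown because both chains share part of that stretch. They are from RefSeq, build GRCr8, 5′ to 3′, with capitals as for Col1a2. Col4a1 is at chr16:84885347-84885596 on the plus strand and Col4a2 at chr16:84885521-84885770 on the minus strand.
Col4a1: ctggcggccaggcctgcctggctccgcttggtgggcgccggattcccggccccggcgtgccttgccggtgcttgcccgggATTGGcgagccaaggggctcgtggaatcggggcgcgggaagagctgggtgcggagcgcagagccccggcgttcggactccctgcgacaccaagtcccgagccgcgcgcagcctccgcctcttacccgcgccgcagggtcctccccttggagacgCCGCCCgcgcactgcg
Col4a2: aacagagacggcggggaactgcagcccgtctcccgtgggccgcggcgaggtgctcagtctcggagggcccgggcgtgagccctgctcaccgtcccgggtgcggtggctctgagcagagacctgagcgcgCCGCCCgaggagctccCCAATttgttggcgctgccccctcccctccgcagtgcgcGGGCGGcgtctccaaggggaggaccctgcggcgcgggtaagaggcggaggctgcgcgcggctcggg
The windows shared 76 bases, chr16:84885521-84885596, read on opposite strands, and the GGGCGG match of the Col4a1 window was also in the Col4a2 window. Col4a1 held 1 CCAAT and 1 GGGCGG match, and Col4a2 1 and 2. Neither held TATAAA or GGAATG.

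Col18a1 and Col15a1 encode the multiplexins, collagens that carry heparan or chondroitin sulfate chains and sit at the edge of basement membranes. Col18a1, on probe set 1388459_at, read 10.94, 10.90, 10.77 and 10.71 in S, 10.68, 10.57, 10.49 and 10.53 in ET3x1, and 10.81, 10.85, 10.89 and 10.88 in ET3x2. All ET3x1 pools were below all others, and the ET3x2 pools were closely spaced. ET3x1 was lower than S by −0.26 on the log2 scale (SE 0.076, adjusted p = 0.190) and ET3x2 higher than ET3x1 by 0.29 (SE 0.076, adjusted p = 0.0871). With pools A, B and J left out these were −0.17 and 0.29 (adjusted p = 0.589 and 0.119). The second probe set, 1388143_at, gave −0.26 (SE 0.15) and 0.36 (SE 0.15).

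Col15a1 on 1379345_at read 8.61, 8.81, 8.31 and 8.35 in S, 8.20, 8.21, 7.996 and 8.28 in ET3x1, and 8.28, 8.73, 8.31 and 8.07 in ET3x2. The ET3x1 pools lay below S, pools C and D by little, and the high values were again in A, B and J. The difference was −0.35 (SE 0.13, adjusted p = 0.368), and it was −0.16 when pools A, B and J were left out. Its brighter probe set 1388939_at gave −0.24 (SE 0.098, adjusted p = 0.319).

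Nid1 encodes nidogen 1, which bridges laminin and type IV collagen. Probe set 1371032_at read 9.32, 9.23, 9.11 and 9.07 in S, 8.70, 8.99, 8.80 and 8.75 in ET3x1, and 9.01, 9.31, 8.96 and 9.01 in ET3x2. Every ET3x1 pool was below every S pool, by a mean difference of −0.37 (SE 0.095, adjusted p = 0.156), and pool J stood above the other ET3x2 pools. Leaving pools A, B and J aside, the difference was −0.28 (adjusted p = 0.432). The brighter Nid1 probe set, 1371518_at, read 12.72, 12.84, 12.44 and 12.28 in S, 12.48, 12.55, 12.44 and 12.30 in ET3x1, and 12.23, 12.60, 12.53 and 12.44 in ET3x2. There the strains overlapped and the difference was −0.13 (SE 0.12, 95% interval −0.38 to 0.12), or 0.084 without pools A, B and J.

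Perlecan, encoded by Hspg2, is the large heparan sulfate proteoglycan of these membranes. It read 9.17, 9.52, 9.22 and 9.26 in S, 9.12, 9.30, 9.12 and 9.06 in ET3x1, and 9.43, 9.46, 9.57 and 9.30 in ET3x2. ET3x2 pools all lay above ET3x1 pools, by 0.29 (SE 0.090, adjusted p = 0.149), with S between them and overlapping both. Of the laminin chains, Lamb2 read 9.51, 9.58, 9.58 and 9.41 in S, 9.39, 9.26, 9.32 and 9.52 in ET3x1, and 9.18, 9.22, 9.20 and 9.51 in ET3x2. Pools I, J and K were below every S pool and pool L was level with pool A, and the difference of ET3x2 from S was −0.24 (SE 0.088, adjusted p = 0.326). Lama2, Lamb1, Lamc1 and Nid2 differed from S by 0.034 to 0.18 in ET3x1 and by −0.011 to 0.025 in ET3x2 on their brightest probe sets, each with an unadjusted p above 0.05. A second Lamc1 probe set, 1370993_at, gave −0.33 in ET3x1 and −0.35 in ET3x2 against S (SE 0.26), and pools A, B and J were its highest.

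**Figure D3:**
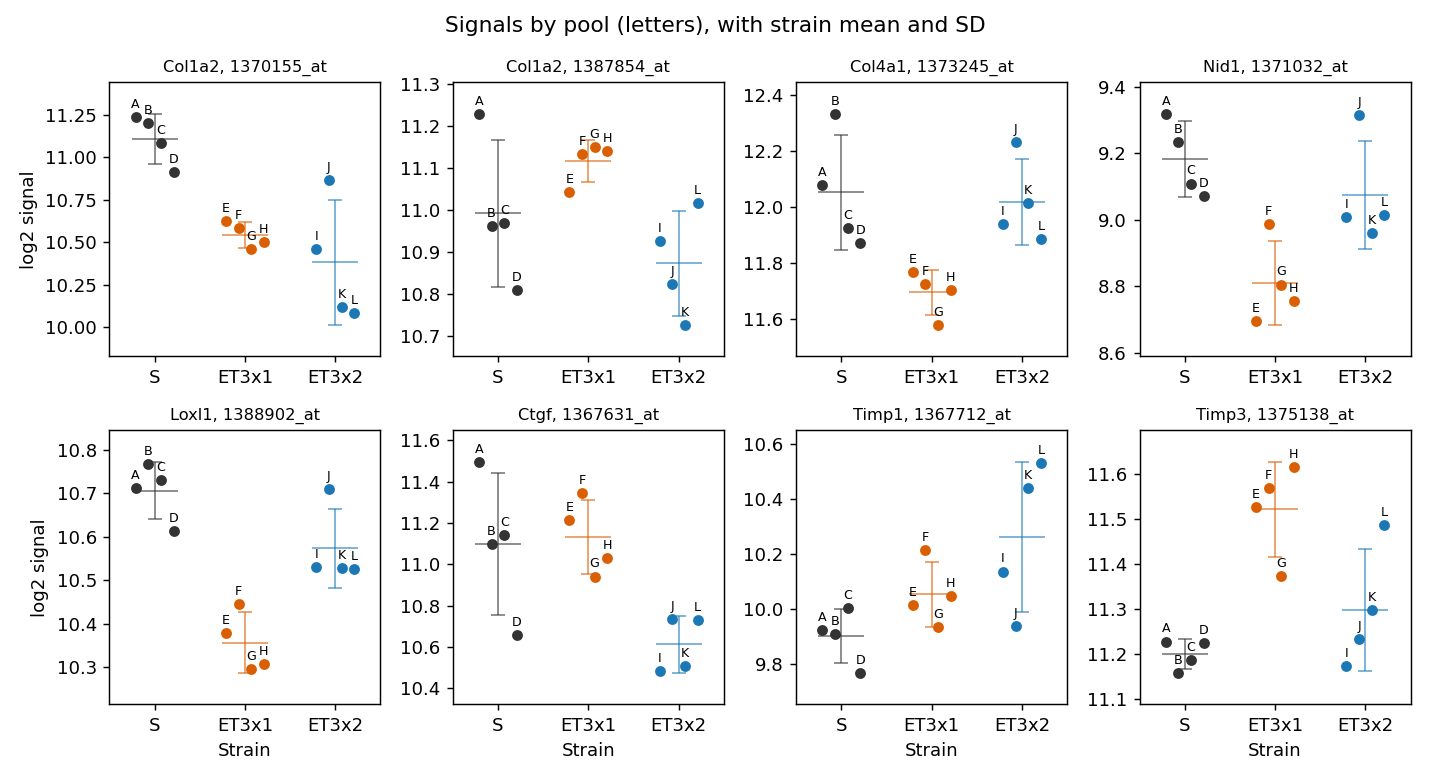
Log2 signals of 8 probe sets in each pool (lettered points), with the strain mean (long bar) and SD (error bar, n = 4 pools). All S pools of Col1a2 1370155_at lie above both substrains, while Col1a2 1387854_at overlaps. ET3x1 has the lowest mean in Col4a1, Nid1 and Loxl1 and the highest in Timp3 1375138_at, and ET3x2 has the lowest mean in Ctgf.

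The crosslinking enzymes were the role with the most negative median in ET3x1 against S, −0.34 for 2 of 2 genes, with −0.10 in ET3x2 against S and 0.24 in ET3x2 against ET3x1. Loxl1, which crosslinks elastin, read 10.71, 10.77, 10.73 and 10.61 in S, 10.38, 10.45, 10.30 and 10.31 in ET3x1, and 10.53, 10.71, 10.53 and 10.53 in ET3x2. The ET3x1 pools were below all other pools, S pool D included, which was low in most collagens. ET3x1 differed from S by −0.35 (SE 0.074, 95% interval −0.51 to −0.19, adjusted p = 0.0845), the smallest p of the listed genes in that comparison. It passed at −0.35 with each array centred on its median (adjusted p = 0.0427), at −0.37 after quantile normalisation (adjusted p = 0.0455) and at −0.38 with array weights (adjusted p = 0.0339). Over the 9 pools other than A, B and J, the difference was −0.32 (adjusted p = 0.274), and with the actin covariate −0.31 (adjusted p = 0.0852). ET3x2 was 0.22 above ET3x1 (SE 0.074, adjusted p = 0.183).

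Lox, the founding lysyl oxidase, is dimmer and read 8.10, 8.17, 7.97 and 8.24 in S, 7.91, 7.59, 7.75 and 7.88 in ET3x1, and 8.01, 8.22, 8.08 and 7.86 in ET3x2. Here too each ET3x1 pool was below each S pool, pool D being the highest of all 12. Its differences were −0.34 in ET3x1 against S (SE 0.094, adjusted p = 0.184), or −0.32 with pools A, B and J left out (adjusted p = 0.444), and 0.26 in ET3x2 against ET3x1 (SE 0.094, adjusted p = 0.208). A second Lox probe set, 1368172_a_at, was below the signal filter, at 6.38 to 6.88 in S, 6.55 to 6.82 in ET3x1 and 6.08 to 6.43 in ET3x2, and did not show the order S above ET3x1.

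**Figure D4:**
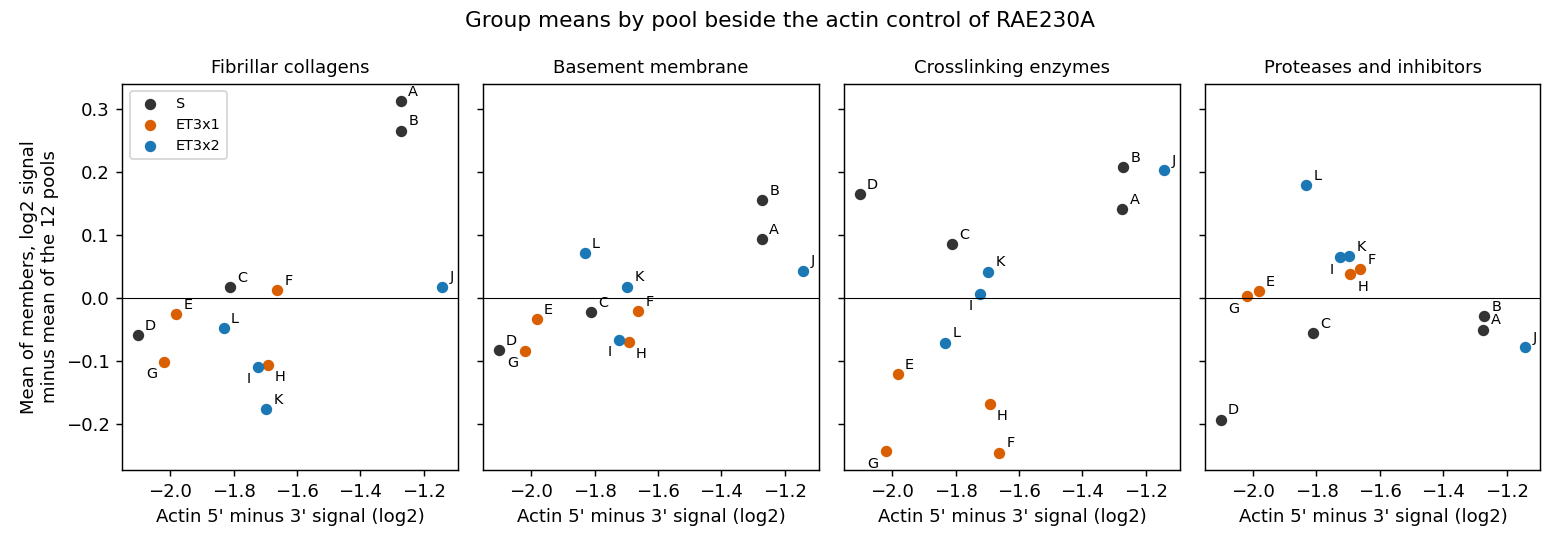
Mean of the genes of 4 roles in each pool (centred log2 signal, vertical axis) against the actin 5' minus 3' signal of RAE230A (horizontal axis, log2), coloured by strain. Pools A, B and J lie at the right. Fibrillar collagens are high in A and B, crosslinking enzymes are low in the 4 ET3x1 pools, which lie between −2.02 and −1.66 on the actin axis, away from A, B and J, and proteases and inhibitors are below 0 in all S pools and in J.

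Of the other collagens of the interstitium, 4 genes were tested, and the median was −0.21 in ET3x1 against S (3 negative), −0.078 in ET3x2 against S and 0.034 in ET3x2 against ET3x1. Col6a1 and Col6a2, chains of the beaded type VI filaments, both on chromosome 20, differed by −0.26 (SE 0.11, adjusted p = 0.330) and −0.27 (SE 0.10, adjusted p = 0.291) in ET3x1. In ET3x2 against S they gave −0.019 and −0.21. The dimmer Col6a2 probe set 1376162_at read 8.28, 8.36, 8.41 and 8.47 in S, 8.25, 8.40, 8.24 and 8.33 in ET3x1, and 8.47, 8.46, 8.44 and 8.43 in ET3x2. The ET3x2 pools were closely spaced (SD 0.017, n = 4 pools) and lay above ET3x1 by 0.15 (SE 0.065, adjusted p = 0.312).

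Col12a1, a collagen that decorates fibrils, read 11.05, 11.11, 10.70 and 10.47 on 1370927_at in S, 10.72, 10.78, 10.62 and 10.59 in ET3x1, and 10.60, 10.92, 10.66 and 10.59 in ET3x2. Pools A, B and J were its 3 highest, and the strains overlapped (−0.15 in ET3x1, SE 0.13, and 0.095 without these pools). On 1395580_at, dim on RAE230B, it read 7.22, 7.24, 7.29 and 7.13 in S, 7.03, 7.12, 7.07 and 7.07 in ET3x1, and 7.09, 7.18, 7.09 and 7.18 in ET3x2. That probe set gave −0.15 too (SE 0.052, adjusted p = 0.312), with no overlap of ET3x1 and S and pools A, B and J not above the rest of their strains together. Col14a1, a related collagen, read 7.62, 7.70, 7.61 and 7.63 on 1376170_at in S, 7.54, 7.48, 7.59 and 7.61 in ET3x1, and 7.64, 7.73, 7.70 and 7.54 in ET3x2. The ET3x1 pools were just below S, with a mean difference of −0.085 (SE 0.064, adjusted p = 0.586), while its second probe set gave 0.11.

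Fn1, which encodes fibronectin, the scaffold on which collagen is laid down, read 12.06, 12.04, 11.70 and 11.47 in S, 11.58, 11.84, 11.44 and 11.66 in ET3x1, and 11.60, 11.79, 11.78 and 11.65 in ET3x2. Pools A and B were the highest and pool D nearly the lowest, so that S spanned most of the range of the 12 pools, and the differences from S were −0.19 and −0.11 (SE 0.13, adjusted p = 0.529 and 0.780). Both turned in sign when pools A, B and J were left out, to 0.044 and 0.088.

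Fbn1, on chromosome 3, encodes fibrillin 1 of microfibrils. Its probe set 1368829_at read 9.97, 10.18, 9.96 and 9.83 in S, 10.02, 9.91, 9.92 and 9.91 in ET3x1, and 9.71, 9.84, 9.75 and 9.79 in ET3x2. All ET3x2 pools were below all ET3x1 pools (−0.17, SE 0.080, adjusted p = 0.329), and all but pool J were below all S pools (−0.22, SE 0.080, adjusted p = 0.338). The second probe set, 1387351_at, gave −0.34 and −0.36 in these comparisons (SE 0.18). Whether Fbn1 and Col5a1, the listed genes tested on chromosome 3, lie in the introgressed segment is not given in the sources used here. Eln, which encodes elastin, differed from S by 0.023 in ET3x1 and 0.089 in ET3x2 (SE 0.089) on its brighter probe set.

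Of the matricellular genes, Sparc and Tgfbi were tested. Sparc binds collagen and calcium, and its probe set 1367563_at read 11.95, 11.86, 12.13 and 11.57 in S, 12.06, 12.23, 11.97 and 12.33 in ET3x1, and 11.93, 11.81, 11.91 and 11.75 in ET3x2. Every ET3x2 pool was below every ET3x1 pool, and S overlapped both. The differences were −0.30 in ET3x2 against ET3x1 (SE 0.11, adjusted p = 0.227) and 0.27 in ET3x1 against S (SE 0.11, adjusted p = 0.321). Its sister probe set 1367562_at gave 0.15 in ET3x2 against ET3x1 (SE 0.15), the opposite sign, with S pool A lowest at 10.87. In ET3x2 against S the signs were opposite too, 0.35 on 1367562_at and −0.026 on 1367563_at. Tgfbi, a matrix protein induced by TGF-beta, differed by −0.053 to 0.12 in the 3 comparisons.

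Small leucine-rich proteoglycans coat collagen fibrils. Bgn, biglycan, read 12.50, 12.69, 12.36 and 12.55 in S, 12.47, 12.44, 12.42 and 12.53 in ET3x1, and 12.26, 12.47, 12.52 and 12.57 in ET3x2. Its strains overlapped, with differences from S of −0.061 and −0.070 (SE 0.085, 95% intervals −0.24 to 0.12 and −0.25 to 0.11), and the first was 0.011 without pools A, B and J. Dcn, decorin, differed by −0.099 and −0.23 (SE 0.12, adjusted p = 0.756 and 0.510). The dim Lum, lumican, lay at 6.72 to 7.35 in S, 7.31 to 7.38 in ET3x1 and 6.89 to 7.32 in ET3x2.

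Of the genes that set turnover of the matrix, 5 were tested, with a median of 0.13 in both comparisons with S by the brightest probe set of each gene. Over all 11 tested probe sets of these genes the median was −0.032 in ET3x1 against S (6 negative) and 0.022 in ET3x2 against S (3 negative), so that the sign in ET3x1 depended on the choice of probe set. Mmp14, a membrane-bound collagenase that activates Mmp2, differed from S by 0.40 and 0.38 on 1367860_a_at (SE 0.16, adjusted p = 0.306 and 0.387), and its signals ran from 10.09 to 10.95 in S, 10.93 to 11.10 in ET3x1 and 10.80 to 11.08 in ET3x2. S pools A and B, both at 10.95, overlapped the substrains, and pools C and D, at 10.39 and 10.09, were the lowest of all. On the 9 pools left after A, B and J were dropped, the differences were therefore 0.76 and 0.80 (adjusted p = 0.00471 and 0.00923) and rested on pools C and D. On its second probe set, 1378225_at, Mmp14 differed by −0.072 and 0.00038 (SE 0.061). Mmp2, which cuts denatured and type IV collagen, was lower in ET3x1 than in S by −0.25 (SE 0.096, adjusted p = 0.297) and higher in ET3x2 than in ET3x1 by 0.26 on its brighter probe set, 1370301_at. Its second, 1369825_at, gave −0.032 and 0.054 (SE 0.077).

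Timp1, on the X chromosome, encodes a tissue inhibitor of metalloproteinases that is induced in injured kidney. It read 9.93, 9.91, 10.002 and 9.77 in S, 10.02, 10.21, 9.94 and 10.05 in ET3x1, and 10.14, 9.94, 10.44 and 10.53 in ET3x2. Pools I, K and L were above all S pools, and pool J was within them. The difference of ET3x2 from S was 0.36 (SE 0.12, 95% interval 0.11 to 0.61, adjusted p = 0.264), and 0.48 without pools A, B and J (adjusted p = 0.338). Timp2 on 1367823_at read 8.55, 8.77, 8.53 and 8.58 in S, 8.34, 8.46, 8.45 and 8.43 in ET3x1, and 8.57, 8.79, 8.38 and 8.18 in ET3x2. ET3x1 lay below S by −0.19 (SE 0.11, adjusted p = 0.455) there, while the brighter 1386940_at gave 0.094 (SE 0.092).

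Timp3, the inhibitor bound to the matrix itself, had 4 tested probe sets that gave different orders. On 1375138_at it read 11.23, 11.16, 11.19 and 11.23 in S, 11.53, 11.57, 11.37 and 11.62 in ET3x1, and 11.17, 11.23, 11.30 and 11.49 in ET3x2. The S pools were close together (SD 0.033, n = 4 pools), A and B included, and all ET3x1 pools were above them by a mean of 0.32 (SE 0.082, 95% interval 0.15 to 0.50, adjusted p = 0.156). With pools A, B and J left out this was 0.31. On 1389836_a_at it read 13.03, 13.06, 13.42 and 13.52 in S, 13.36, 13.32, 13.46 and 13.44 in ET3x1, and 13.23, 12.97, 12.88 and 13.22 in ET3x2, where ET3x2 was below ET3x1 by −0.32 without overlap (SE 0.11, adjusted p = 0.201). Pools A and B were low there, below every ET3x1 pool. On 1368989_at the reverse held, with pools A, B and J at 8.68, 9.16 and 9.06 and the other 9 between 7.79 and 8.35. The 4 probe sets thus ran from −0.41 to 0.32 in ET3x1 against S, and from −0.32 to 0.41 in ET3x2 against ET3x1.

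Among the profibrotic signals, Ctgf, the connective tissue growth factor gene on chromosome 1, was lowest in ET3x2. It read 11.49, 11.10, 11.14 and 10.66 in S, 11.21, 11.34, 10.94 and 11.03 in ET3x1, and 10.48, 10.73, 10.51 and 10.73 in ET3x2. Every ET3x2 pool lay below every ET3x1 pool, and of the S pools only D, at 10.66, fell into the ET3x2 range. ET3x2 differed from ET3x1 by −0.52 (SE 0.15, 95% interval −0.83 to −0.21, adjusted p = 0.113) and from S by −0.48 (SE 0.15, adjusted p = 0.223), while ET3x1 and S differed by 0.035 (SE 0.15), or by −0.11 to 0.17 with 1 pool left out. Without pool D both passed, the first at −0.52 (adjusted p = 0.0356) and the second at −0.63 (adjusted p = 0.0349). With the actin covariate they were −0.64 (adjusted p = 0.0138) and −0.49 (adjusted p = 0.0510), and with pools A, B and J left out −0.56 (adjusted p = 0.0592) and −0.33 (adjusted p = 0.601).

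The Ctgf promoter is shown because it holds the only GGAATG matches among the 4 windows printed. It is from RefSeq under the symbol Ccn2, build GRCr8, chr1:22624615-22624864, minus strand, with capitals as before.
Ctgf: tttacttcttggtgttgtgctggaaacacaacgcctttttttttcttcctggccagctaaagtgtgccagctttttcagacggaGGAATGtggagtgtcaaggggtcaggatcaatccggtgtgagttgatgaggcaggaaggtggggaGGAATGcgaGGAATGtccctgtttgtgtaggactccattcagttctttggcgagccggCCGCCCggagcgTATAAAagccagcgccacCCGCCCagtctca
The window held 3 GGAATG matches, 2 GGGCGG matches on the minus strand and 1 TATAAA match, at −31 from the start. The other listed genes with GGAATG in their window were Acta2, Lamc1, Loxl1, Nid1, Sparc and Timp1, which did not share a direction in ET3x2 against ET3x1.

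No pair of strains was apart by more than 0.31 in the TGF-beta genes themselves. Tgfb1 was 0.31 higher in ET3x2 than in ET3x1 (SE 0.13, adjusted p = 0.282), with ranges of 8.60 to 9.01 and 8.15 to 8.79, and 8.41 to 8.86 in S. Tgfb2 on 1387172_a_at read 7.91, 8.04, 7.96 and 7.90 in S, 8.01, 8.05, 7.96 and 8.09 in ET3x1, and 8.04, 8.04, 8.16 and 8.11 in ET3x2. ET3x2 was just above S in every pool, by 0.14 on average (SE 0.063, adjusted p = 0.428), while 1388011_a_at gave −0.10 (SE 0.12).

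Acta2, the smooth muscle actin of vessels and myofibroblasts, was highest in ET3x2. It read 10.05, 10.42, 9.81 and 9.70 in S, 10.08, 9.99, 10.07 and 9.82 in ET3x1, and 10.33, 10.52, 10.11 and 10.26 in ET3x2. ET3x2 pools were above ET3x1 pools without overlap, by 0.32 (SE 0.14, adjusted p = 0.290), and above S by 0.32 with overlap (SE 0.14, adjusted p = 0.403). Pools B and J were the highest 2 of the 12. Vim, vimentin of mesenchymal cells, read 11.36, 11.34, 10.96 and 10.82 in S, 11.07, 11.05, 10.82 and 10.98 in ET3x1, and 11.01, 11.15, 11.07 and 11.06 in ET3x2. Pools A and B were its highest and S overlapped both substrains, with differences from S of −0.14 and −0.046 (SE 0.11), which became 0.095 and 0.16 without pools A, B and J. Tagln, transgelin of smooth muscle, differed from S by 0.035 and 0.18 (SE 0.11). The mean of the 4 tested vascular smooth muscle markers ran from −0.044 to 0.070 in S, −0.12 to 0.048 in ET3x1 and 0.0022 to 0.086 in ET3x2, and their part in the Acta2 difference was not tested.

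Of the 40 tested genes, 20 had more than 1 tested probe set. The probe sets of a gene gave opposite signs for 8 of the 20 in ET3x1 against S, for 7 in ET3x2 against S and for 6 in ET3x2 against ET3x1. The widest gaps in ET3x1 against S were those of Timp3 (0.74), Col1a2 (0.69) and Mmp14 (0.47). Probe sets of Col12a1, Col18a1, Col5a2, Fbn1 and Col4a1 agreed within 0.022 in that comparison.

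The listed genes varied more between pools of S than those of the substrains. Their median SD was 0.17 in S, 0.11 in ET3x1 and 0.13 in ET3x2, where the medians of all genes tested were 0.13, 0.12 and 0.096. The listed genes were also brighter, with a median at the 84.6th percentile of signal against the 71.0th.

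Of 107 further genes of the matrix pathway, 88 were tested, each by its tested probe set of highest mean alone. Any other probe sets of these genes are not given here. At an adjusted p under 0.05 (limma) 3 passed, 1 lower in ET3x1 than in S, 2 lower in ET3x2 than in ET3x1 and none higher. Of all 11218 genes, 26 were called in the first comparison (2 lower) and 122 in the second (104 lower). Itgb1, integrin beta 1, the common chain of the collagen and laminin receptors, was lower in ET3x1 than in S by −0.73 (SE 0.11, adjusted p = 0.0173), from 11.87, 11.89, 11.77 and 11.72 in S to 11.13, 11.06, 10.90 and 11.25 in ET3x1, with ET3x2 at 11.27, 11.86, 11.61 and 11.39. Without pool G its adjusted p was 0.0732, the highest of 21 alternatives, and it missed the threshold without pool A, B, E or F too, with differences of −0.74 to −0.67. Itga1, integrin alpha 1, which pairs with it to bind collagen, was lower in ET3x2 than in ET3x1 by −0.94 (SE 0.19, adjusted p = 0.0309). It read 8.72, 8.44, 8.96 and 8.54 in S, 9.31, 8.98, 9.74 and 8.62 in ET3x1, and 8.51, 8.22, 8.10 and 8.07 in ET3x2, with S overlapping both substrains. It missed the threshold in 6 of 21 alternatives, namely without pool K (−0.90, adjusted p = 0.131), E (−0.89, adjusted p = 0.105), G (−0.75, adjusted p = 0.0819), J (−0.94, adjusted p = 0.0631) or L (−0.89, adjusted p = 0.0604), and with pools A, B and J left out (−0.94, adjusted p = 0.0572). Loxl2, a lysyl oxidase that acts on type IV collagen, was lower in ET3x2 than in ET3x1 by −0.75 (SE 0.15, adjusted p = 0.0150), by −0.65 without pool K (adjusted p = 0.0675) and by −0.73 without pool E (adjusted p = 0.0624). Its signals were 8.55, 8.34, 8.41 and 8.45 in S, 8.66, 8.46, 9.03 and 8.31 in ET3x1, and 8.05, 8.12, 7.58 and 7.71 in ET3x2. It was lower than S by −0.57 (adjusted p = 0.146).

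In ET3x2 against S none of the 88 passed (limma), and 23 of all 11218 genes did. At an unadjusted p under 0.05, 5 of the 88 were lower and 5 higher, where 391 of all genes were lower and 916 higher. The smallest p was that of the metalloproteinase gene Mmp11, at 0.47 (SE 0.11, adjusted p = 0.129). The medians of the 88 were −0.042, −0.0099 and 0.056 in the 3 comparisons. In both comparisons with S they were closer to 0 than those of the 40 listed genes, but the lists within the 88 differed. In ET3x1 against S the 29 other matrix proteins had a median of −0.12 with 23 negative, beside −0.098 for the listed genes. Those of the remaining lists ran from −0.082 to 0.029. At an unadjusted p under 0.05 (limma), 10 of the 88 were lower in ET3x1 than in S and 4 higher. Other matrix proteins made up 7 and 1 of these. Of all 11218 genes, 511 were lower and 831 higher.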

How the data were processed

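The deposited tables hold 1 value per probe set and pool for each array, 24 arrays in all. Their scale is unstated, and the deposited numbers were taken for log2 signal from their range, 4.10 to 15.24. Per the labels' protocols, cDNA was primed with oligo(dT) and biotin-labelled cRNA was hybridised; the summarisation and normalisation are not given in the sources used here. No arrays were identical. Symbols came from the platform annotation, updated through Entrez identifiers in the RefSeq table; 3 probe sets naming both Acta2 and Actc1 were left out, as were 57 control probe sets per array and probe sets with a mean under the 30th percentile of their array (7.52 and 6.85). Linear models were fitted to all 12 pools of each array with limma 3.58.1 (lmFit, eBayes with a trend) in R 4.3.3, without covariates. P-values are two-sided, with Benjamini-Hochberg adjustment over the tested probe sets of an array (21799 on both) for each comparison, and a threshold of 0.05. Their error is that between pools, each of other rats. The number of pools, 4 per strain, limits the precision. The listed genes, their 10 roles and the pathway and marker lists were chosen with earlier results of these data known. So was the rule for named genes (smallest p, no overlap between strains, or brightest of a role). Motif counts cover RefSeq windows of 250 bases before each start. The calculation was tested on simulated RAE230A data with independent noise and changes of 1 log2 unit. These were larger than the differences of the listed genes, so that test does not show how smaller differences fare. Alternatives were other filters, normalisations, priors, weights, an actin covariate, 2 strains only and pools left out. Figures were drawn with matplotlib 3.10.9.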

Additional observations from a re-analysis of the deposited data

Results flagged for a closer look

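In 8 of 120 strain groups of 4 pools looked at, 1 pool stood apart by more than Dixon's criterion on the gap to its nearest neighbour, which chance gives in about 1 in 20 groups. Pool J of ET3x2 did so in 3: Loxl1 1388902_at at 10.71 (the others at 10.53), Nid1 1371032_at at 9.31 (8.96 to 9.01) and the mean of the other collagens of the interstitium at 0.15 (−0.067 to −0.042). Pool L of ET3x2 was high in Lamb2 at 9.51 (9.18 to 9.22). Pool E of ET3x1 was high in Fbn1 1368829_at at 10.02 (9.91 to 9.92) and low in Col1a2 1387854_at at 11.04 (11.13 to 11.15). Pool G of ET3x1 was low in the mean of small leucine-rich proteoglycans at −0.071 (0.010 to 0.023), and S pool D in that of proteases and inhibitors at −0.19 (−0.055 to −0.029).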

How the results depend on the processing

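The count of listed probe sets past the threshold was 0 in each comparison. In ET3x1 against S it was 1 with 2 strains only (Col1a2), with median centring, quantile normalisation or array weights (Loxl1 in each) and without pools A, B and J (Mmp14), and 0 to 1 with 1 pool left out. In ET3x2 against S it was 1 with the actin covariate, the 50th percentile filter or median centring (Col1a2), 2 with array weights (Col1a2 and Ctgf) and without pools A, B and J (Col1a2 and Mmp14), and 0 to 2 with 1 pool left out. In ET3x2 against ET3x1 it was 1 with 2 strains only, the actin covariate or quantile normalisation (Ctgf), 8 with array weights and 0 to 1 with 1 pool left out. The median difference of the 40 genes in ET3x1 against S was 0.026 without pools A, B and J. With 1 pool left out the medians ranged from −0.13 to −0.049, −0.084 to 0.0062 and 0.024 to 0.067 in the 3 comparisons in the order above. Of 87 differences followed (29 named probe sets in 3 comparisons), 26, of 17 probe sets, changed sign in at least 1 alternative. None of the 26 had passed the threshold or had an unadjusted p under 0.05. Without pools A, B and J the ET3x1 against S difference became 0.24 for Acta2, 0.011 for Bgn, 0.095 for Col12a1 1370927_at, 0.047 for Fbn1, 0.044 for Fn1, 0.084 for Nid1 1371518_at, −0.079 for Timp3 1389836_a_at and 0.095 for Vim. That of ET3x2 against S became 0.036 for Col12a1, 0.0014 for Col1a2 1387854_at, 0.047 for Col4a1, 0.088 for Fn1, 0.042 for Nid1, 0.015 for Sparc and 0.16 for Vim, and that between the substrains −0.060 for Col12a1, −0.042 for Nid1 and −0.041 for Timp2. With the actin covariate Acta2 in ET3x1 against S was 0.10, and between the substrains Col12a1 was −0.12, Col15a1 −0.0046, Col3a1 −0.030, Fn1 −0.057, Nid1 −0.098, Timp2 −0.014 and Vim −0.018. Median centring gave −0.0011 for Col12a1 and −0.0085 for Nid1 between the substrains and −0.0073 for Col14a1 in ET3x2 against S. Quantile normalisation gave −0.015 for Nid1 in the former, and −0.0062 for Col14a1 and −0.0086 for Col18a1 in the latter. Array weights gave −0.080 for Ctgf in ET3x1 against S. With 1 pool left out, the values that crossed 0 in ET3x1 against S were those of Acta2 (−0.10 to 0.14), Ctgf (−0.11 to 0.17) and Fbn1 (−0.097 to 0.021). In ET3x2 against S they were those of Col14a1 (−0.014 to 0.051), Col18a1 (−0.011 to 0.065), Col4a1 (−0.11 to 0.059), Sparc (−0.13 to 0.058) and Vim (−0.15 to 0.035), and between the substrains those of Bgn (−0.049 to 0.057), Col12a1 (−0.060 to 0.052), Nid1 (−0.042 to 0.082) and Timp2 (−0.041 to 0.16). The cause was not tested. No paired analysis was possible because the pools of different strains share no replicate number. The background signal of the arrays is not given, so how many dim probe sets lie near it is unknown.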
